A study of Mus musculus with 4 samples.

Results

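In the m6ARIP-seq of iBAT, 5 genes for mitochondrial assembly, cofactor and nucleic acid factors were examined in every region that the deposited peak table lists under them: *Uqcc3*, *Lias*, *Fdx1l*, *Supv3l1* and *Tfam*. They hold 7 of the 9243 regions and are 5 of the 7077 genes, counted by identifier. They were picked by name from the same table because the m6A enrichment of most of them was far lower in BKO mice, so that change is described here and not tested. At the 3′ end of each gene the fold enrichment was lower in BKO iBAT, with log2 ratios between -5.87 and -2.49. The region of *Uqcc3* is counted there, here and below, by the label of its center, although it covers 90.4% of that short gene. In each of them the change held a part from a higher input level, 34.5% in *Tfam* to 60.5% in *Uqcc3*, beside one from a lower IP level. At the 5′ end of *Fdx1l* and *Tfam*, a second region, called as a peak in BKO iBAT only, had a higher ratio in BKO iBAT. In *Tfam* that ratio lay within counting error of 0.

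BKO mice carry *Mettl3* flox/flox and UCP1-iCre, so *Mettl3*, which encodes the m6A methyltransferase, is targeted in cells that express *Ucp1*, that is brown adipocytes, while other cells of iBAT keep the gene. The control mice are *Mettl3* flox/flox without iCre, and both groups are C57BL/6 mice on normal chow at 8 weeks of age. Each genotype has 1 IP and 1 input library of poly(A)+ RNA pooled from 5 mice. In m6ARIP-seq an m6A antibody captures RNA fragments (IP), and the input is the same RNA sequenced without capture. The level in a region is given in RPM, the reads scaled to library size, with 1 added to each count by the authors, and the fold enrichment is IP RPM over input RPM. Since no library was repeated, the spread between mice or pools is unknown. The 95% intervals cover counting error only and treat 2 reads as 1 fragment.

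All 5 proteins are made from nuclear genes and work inside mitochondria, which brown adipocytes hold in large numbers for heat production. UQCC3 helps to assemble respiratory complex III around cytochrome b. FDX1L, now named FDX2, is a ferredoxin that passes electrons from ferredoxin reductase to the machinery that builds iron-sulfur clusters. LIAS is an iron-sulfur enzyme that makes the lipoyl group of pyruvate dehydrogenase and related complexes. SUPV3L1 is the RNA helicase that works with the nuclease PNPT1 to degrade mitochondrial RNA, and TFAM packages mitochondrial DNA and is needed to transcribe it. In mRNA, m6A lies mostly near stop codons and in 3′-UTRs.

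The libraries held 13687380 reads in the BKO IP, 13394053 in the BKO input, 8309098 in the flox/flox IP and 8826904 in the flox/flox input, as implied by RPM. *Mettl3* has no region in the table, so the deletion gives no check of the labels. Of 6 brown adipocyte markers, 4 have a region, and their summed input was 224 RPM in BKO and 251 RPM in flox/flox iBAT, nearly all of it from *Ucp1* at 216 and 229 RPM. *Prdm16* was at 4.33 RPM in BKO and 12.2 RPM in flox/flox iBAT, *Dio2* at 3.43 and 9.86 RPM, and *Cidea* at 0.672 and 0.680 RPM. The 5 adipocyte markers summed to 3581 RPM in BKO and 1565 RPM in flox/flox iBAT. Skeletal muscle markers stood out: 7 of 9 have a region, and their summed input was 371 RPM in BKO and 8.61 RPM in flox/flox iBAT. *Acta1* and *Ckm* have no region. The 2 of 5 immune markers with a region summed to 143 and 85.1 RPM in BKO and flox/flox iBAT, and the 3 endothelial markers to 139 and 229 RPM. The endothelial markers moved in different directions, with *Cdh5* at 89.4 RPM in BKO and 183 RPM in flox/flox iBAT, *Pecam1* at 13.9 and 6.797 RPM, and *Kdr* at 35.5 and 39.1 RPM. The part of these markers in the input values below was not tested, and fewer cells of a type cannot be told apart from less RNA per cell in bulk tissue.

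*Uqcc3* has a single region, on chromosome 19 from 8880066 to 8880897 (GRCm38, minus strand), labelled 3′-UTR at its center. The gene is only 920 bases long in RefSeq, and the region covers 90.4% of it, so it reads nearly the whole transcript. The IP library held 1514 reads in BKO and 4580 in flox/flox iBAT. The input library held 834 reads in BKO and 46 in flox/flox iBAT. In BKO iBAT the IP was thus lower and the input higher, in opposite directions. In RPM, the IP was 111 in BKO and 551 in flox/flox iBAT, and the input was 62.3 in BKO and 5.32 in flox/flox iBAT. The fold enrichment was 1.78 (1.58 to 2.001) in BKO and 104 (69.0 to 155) in flox/flox iBAT, a log2 ratio of -5.87 (-6.48 to -5.25). Of that change, -2.32 came from the IP and 3.55 (2.95 to 4.15) from the input, which is 60.5% from the input.

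*Lias* has a single region in its last exon, on chromosome 5 from 65408764 to 65409276 (plus strand), 17.5 kb from the start of the gene. Its IP held 478 reads in BKO and 2262 in flox/flox iBAT, or 35.0 and 272 RPM. Its input held 226 reads in BKO and 20 in flox/flox iBAT, or 16.9 and 2.38 RPM. The flox/flox input is the thinnest of the 5 genes at the 3′ end, and it sets the wide interval of the enrichment. The fold enrichment was 2.06 (1.65 to 2.58) in BKO and 114 (62.3 to 210) in flox/flox iBAT, a log2 ratio of -5.79 (-6.73 to -4.86). Both parts were close in size, -2.96 (-3.16 to -2.76) from the IP and 2.83 (1.92 to 3.74) from the input, so 48.9% (40.7 to 57.1%) came from the input.

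*Supv3l1* has 1 region, labelled 3′-UTR, on chromosome 10 from 62429288 to 62429836 (minus strand). Here the IP differed most among the 5 genes, with 410 reads in BKO and 2922 in flox/flox iBAT, or 30.03 and 352 RPM. The input held 246 reads in BKO and 32 in flox/flox iBAT, or 18.4 and 3.74 RPM. The fold enrichment was 1.63 (1.30 to 2.04) in BKO and 94.1 (57.9 to 153) in flox/flox iBAT. The log2 ratio of -5.85 (-6.62 to -5.08) is nearly that of *Uqcc3*, yet its composition differed: -3.55 (-3.76 to -3.34) came from the IP and 2.30 (1.56 to 3.04) from the input. The input thus gave 39.3% (31.5 to 47.1%) of the change, against 60.5% (56.3 to 64.7%) in *Uqcc3*, and these counting intervals do not overlap.

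**Figure D1:**
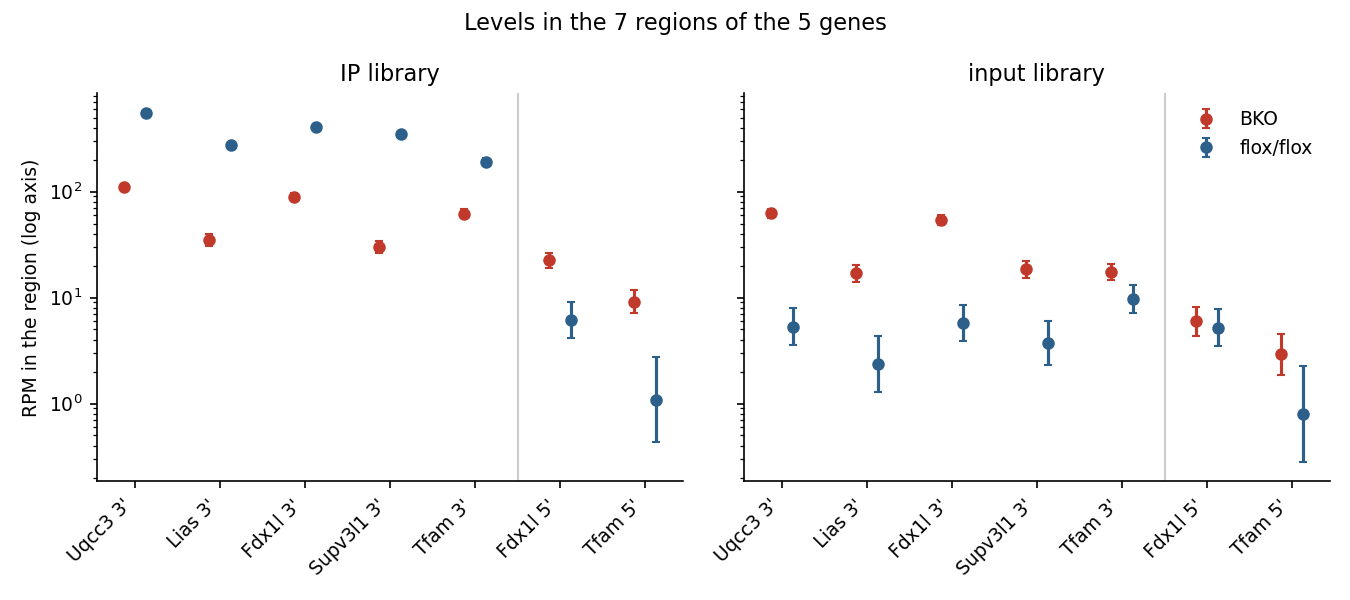
Level in RPM (log axis) of the IP library (left panel) and the input library (right panel) in each of the 7 regions, BKO in red and flox/flox in blue, with bars for the 95% counting interval of 1 library each. At the 5 regions of the 3′ end the BKO point is lower in the IP and higher in the input, while at the 5′ regions the BKO point is the higher one in the IP.

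*Fdx1l* has a 3′ region on chromosome 9 from 21067419 to 21067949 (minus strand), labelled last exon, whose end runs 93 bases past the RefSeq gene. The table also lists it under *Raver1*, which encodes an RNA-binding protein, and under AC163637.2, so the reads of these genes cannot be told apart here, although RefSeq places *Raver1* from 21074158 to 21091999. The IP held 1215 reads in BKO and 3376 in flox/flox iBAT, or 88.8 and 406 RPM. The input held 721 reads in BKO and 50 in flox/flox iBAT, or 53.9 and 5.78 RPM. As in *Uqcc3*, the input was the library that differed more. The fold enrichment was 1.65 (1.45 to 1.88) in BKO and 70.3 (47.6 to 104) in flox/flox iBAT, a log2 ratio of -5.42 (-6.01 to -4.82). It consisted of -2.19 (-2.33 to -2.06) from the IP and 3.22 (2.64 to 3.80) from the input, or 59.5% from the input.

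*Tfam* had the smallest change of the 5 genes at the 3′ end. Its 3′-UTR region lies on chromosome 10 from 71228086 to 71228621 (minus strand). The IP held 848 reads in BKO and 1594 in flox/flox iBAT, or 62.0 and 192 RPM. The input held 233 reads in BKO and 84 in flox/flox iBAT, or 17.5 and 9.63 RPM, the smallest input difference of the 5. The fold enrichment was 3.55 (2.89 to 4.36) in BKO and 19.9 (14.6 to 27.1) in flox/flox iBAT, so in BKO iBAT this gene had the highest enrichment of the 5 genes at this end. The log2 ratio of -2.49 (-3.02 to -1.96) held -1.63 (-1.80 to -1.46) from the IP and 0.86 (0.35 to 1.37) from the input, which is 34.5% (21.0 to 48.1%) and overlaps the input share of *Supv3l1* within counting error. After centring IP and input each on the median of all regions, the input share of *Tfam* was 4.04%, and after centring on the median of regions that hold 20 or more input reads it was 26.9%. By rank, *Tfam* stood at 789 of the 3605 genes with 20 or more input reads in each genotype, counted from the lowest log2 ratio. *Uqcc3*, *Supv3l1*, *Lias* and *Fdx1l* stood at 1, 3, 4 and 11, so a strong loss describes these 4 better than *Tfam*.

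**Figure D2:**
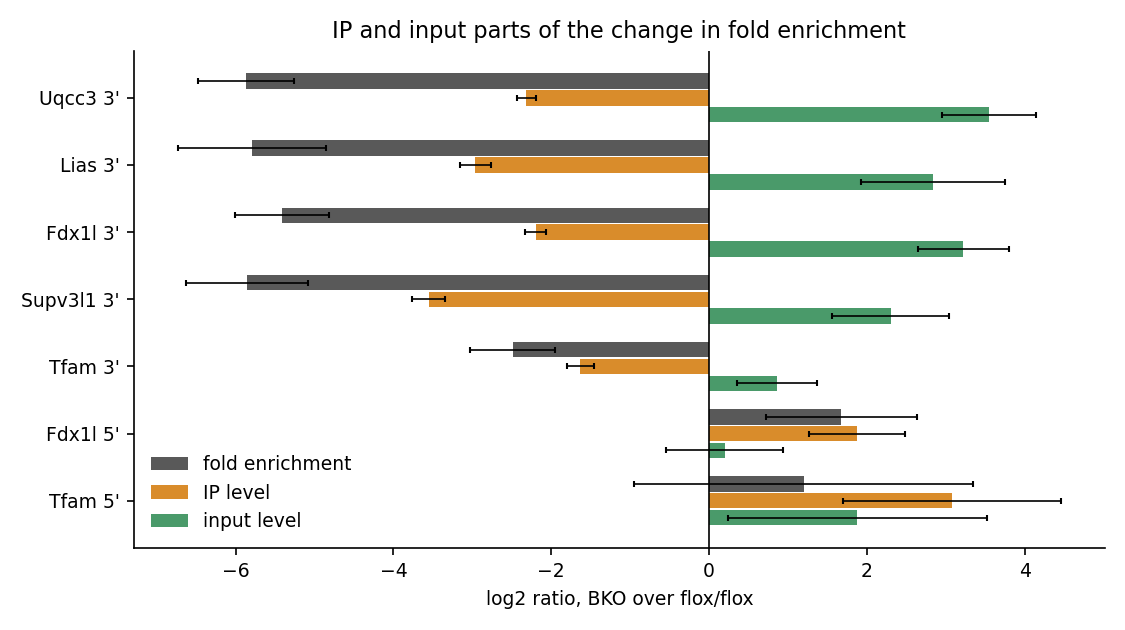
Log2 ratio of BKO over flox/flox for the fold enrichment (grey), the IP level (orange) and the input level (green) in each of the 7 regions, with 95% counting intervals. The fold enrichment ratio is the IP ratio minus the input ratio. The input bars of *Uqcc3* (3.55) and *Fdx1l* (3.22) at the 3′ end are longer than their IP bars.

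Set per length, the 3′ regions of the 5 genes had lower IP levels and higher input levels in BKO mice, a direction that the choice of the genes bears on. The IP level ran from 54.8 to 168 RPM per kb in BKO and from 359 to 767 RPM per kb in flox/flox iBAT. *Fdx1l* was the highest in each genotype, *Supv3l1* the lowest in BKO and *Tfam* the lowest in flox/flox iBAT. The input level ran from 32.7 to 102 RPM per kb in BKO and from 4.65 to 17.999 RPM per kb in flox/flox iBAT. In flox/flox iBAT *Tfam* had the highest input level per kb and *Lias* the lowest. In BKO iBAT *Fdx1l* (102 RPM per kb) and *Uqcc3* (75.0 RPM per kb) stood above *Supv3l1*, *Lias* and *Tfam*, which lay between 32.7 and 33.7 RPM per kb.

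Over all genes, each taken at its most enriched region, a lower enrichment in BKO iBAT was common. It was at least 2-fold lower in 56.5% of 7077 genes and at least 2-fold higher in 17.0%, against 5 of 5 lower here, a count fixed by how the genes were picked. After centring on the median of all regions these shares were 35.9% lower and 30.2% higher. With only regions called in flox/flox iBAT, as the 3′ regions of all 5 genes were, they were 73.6% and 3.38% of 5332 genes without centring. A value at least 4-fold lower was found in 37.4% of genes and in all 5, and one at least 32-fold lower in 2.71% of genes and in 4 of the 5, all but *Tfam*. The counting interval of the log2 ratio lay below 0 in 50.9% of genes, as in all 5 here, and above 0 in 11.4%. The IP was at least 2-fold lower in 43.0% of genes and in all 5, and the input at least 2-fold higher in 43.2% and in 4 of the 5, all but *Tfam*. It was at least 2-fold lower in 6.50% of genes and in none of the 5. Both together occurred in 12.1% of genes, or 9.79% of those with 20 or more input reads in each genotype, and in the same 4 genes. The median log2 ratio over all genes was -0.57 for the IP and 0.81 for the input. Of the 3605 genes with 20 or more input reads in each genotype, *Uqcc3* ranked 18 from the highest input ratio, *Fdx1l* 31, *Lias* 59, *Supv3l1* 154 and *Tfam* 1272. From the lowest IP ratio, *Supv3l1* ranked 56, *Lias* 198, *Uqcc3* 568, *Fdx1l* 650 and *Tfam* 1128. *Uqcc3* and *Fdx1l* thus owe their place among the lowest enrichment ratios more to the input than to the IP.

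**Figure D3:**
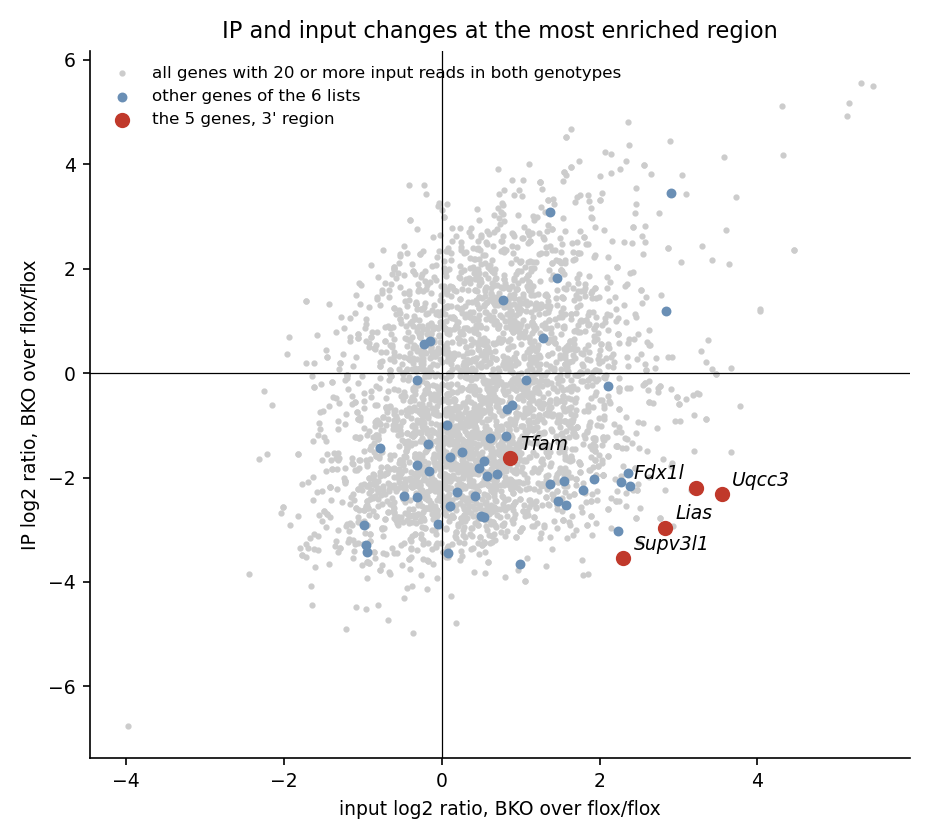
IP log2 ratio against input log2 ratio of BKO over flox/flox at the most enriched region, for the 3605 genes with 20 or more input reads in each genotype (grey), the other genes of the 6 lists (blue) and the 5 genes (red). *Uqcc3*, *Fdx1l*, *Lias* and *Supv3l1* lie at the lower right edge, with a lower IP and a higher input, while *Tfam* lies inside the cloud.

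Regions with a strong enrichment in flox/flox iBAT shared this make-up. Among regions with 20 or more input reads in each genotype, the 883 with a flox/flox fold enrichment of 1 to 2 had a median input log2 ratio of 0.30, and in 22.4% of them the input was at least 2-fold higher in BKO iBAT. In the 656 regions between 10 and 20, where the 3′ region of *Tfam* lies, the median was 0.65. In the 51 regions above 50, where the other 4 genes lie, it was 2.19, and the input was at least 2-fold higher in 84.3%. Their median IP log2 ratio was -2.45. The flox/flox input enters both the enrichment and the input ratio, so a low count there raises each of them. The 4 genes stood at input ratios of 2.30 to 3.55, all above the median of 2.19 of their class, whose highest value was 3.67.

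**Figure D4:**
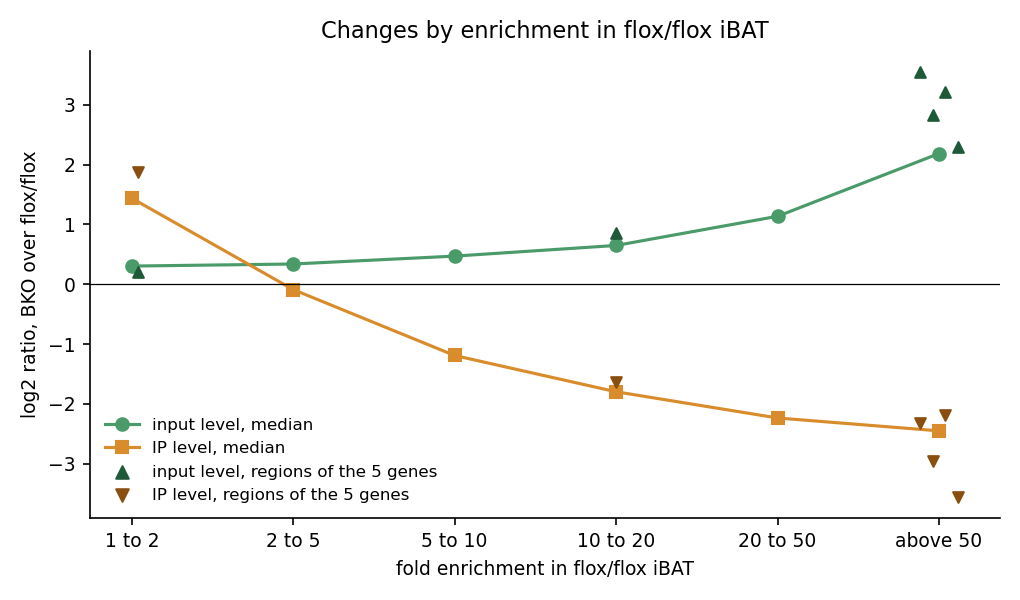
Median of the BKO over flox/flox log2 ratio, for the input level (green circles) and the IP level (orange squares) in regions grouped by fold enrichment in flox/flox iBAT, all with 20 or more input reads in each genotype. Triangles mark the regions of the 5 genes that meet this minimum, and the median input ratio is 2.19 in the group above 50.

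At the other end of *Fdx1l* and *Tfam*, the ratio was higher in BKO iBAT, in *Tfam* within counting error of 0. The peak was called there in BKO iBAT only, which favours a higher IP and ratio in BKO iBAT. The direction and the intervals at this end are thus a description and not a test. All 5 regions at the 3′ end were called in both genotypes, as were the regions of 42.2% of all genes. A 5′ peak called in BKO iBAT only was common, found in 222 of the 314 genes with a region at each end. Among the 90 of them with at least 20 input reads in all 4 counts, it was found in 45. The 5′ region of *Fdx1l* lies on chromosome 9 from 21073277 to 21073580, is labelled exon 1 and is also listed under *Raver1*. Its IP held 307 reads in BKO and 50 in flox/flox iBAT, or 22.5 and 6.14 RPM. Its input held 79 reads in BKO and 45 in flox/flox iBAT, or 5.97 and 5.21 RPM. Input levels were therefore close at this end, with a log2 ratio of 0.20 (-0.54 to 0.94), where the 3′ region of the same gene had 3.22. Enrichment reached 3.77 (2.66 to 5.33) in BKO and 1.18 (0.67 to 2.07) in flox/flox iBAT, a log2 ratio of 1.68 (0.72 to 2.63). The difference between the ends of a gene does not depend on the scaling between libraries. It does depend on how the genes were picked and the 5′ peaks called. In *Fdx1l* the 5′ minus the 3′ log2 ratio was 4.07 (3.45 to 4.69) for the IP and -3.03 (-3.96 to -2.09) for the input.

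In *Tfam* the 5′ region lies on chromosome 10 from 71237860 to 71238073, labelled exon 1. Its reads were few: the IP held 124 in BKO and 8 in flox/flox iBAT, and the input 38 in BKO and 6 in flox/flox iBAT. The IP was 9.13 RPM in BKO and 1.08 RPM in flox/flox iBAT, and the input was 2.91 and 0.79 RPM. Enrichment reached 3.14 (1.89 to 5.21) in BKO and 1.37 (0.34 to 5.52) in flox/flox iBAT. The log2 ratio of 1.20 (-0.95 to 3.34) cannot be told from 0 by counting. The IP ratio alone was 3.08 (1.70 to 4.46), a direction that the call in BKO iBAT only favours. The 5′ minus the 3′ log2 ratio was 4.71 (3.32 to 6.10) for the IP and 1.02 (-0.70 to 2.73) for the input, so unlike in *Fdx1l* the input did not differ between the ends beyond counting error.

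This pairing of ends is common in the table. There were 314 genes with separate regions in the 5′-UTR or exon 1 and in the last exon or 3′-UTR. Of these, 181 (57.6%) had a higher ratio in BKO iBAT at the 5′ end and a lower one at the 3′ end. So did *Fdx1l*, and *Tfam* too, though its 5′ ratio lay within counting error of 0. In 222 of the 314 genes the 5′ peak was called in BKO iBAT only, which favours this pattern. A lower ratio at both ends was found in 99, and the reverse of the first pattern in 3. With at least 20 input reads in all 4 counts, it was 51 of 90 (56.7%). The median input log2 ratio of the 314 genes was 1.32 at the 5′ end and 0.77 at the 3′ end, while *Fdx1l* had 0.20 and 3.22.

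The 5′ regions of both genes overlap the promoter windows of RefSeq (GRCm38.p6), which run to 50 bases after a start site, and they could be read there for the letters GGAC, the core of the usual m6A motif. The overlap is 99 bases in *Fdx1l*, with 1 match on the RNA strand, and 79 bases in *Tfam*, with none. The *Tfam* window, from 71237995 to 71238294, is set at a start site inside the gene and not at its outer end in RefSeq. Of all 32851 windows, 31.7% hold GGAC in their last 99 bases and 26.7% in their last 79. The match in *Fdx1l* is shown in capitals with the bases around it (chr9:21073533-21073562, minus strand), and it lies 15 bases upstream of the RefSeq start but inside the gene as the deposited table gives it, which reaches to 21073614.
Fdx1l: ttactgtcgctgaGGACgcgcagagcatgc

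The other genes of the same pathways were read from 6 lists of 152 names, of which 80 have a region. At least 2-fold lower enrichment in BKO iBAT was found in 61 of the 80 and at least 2-fold higher in 6, with a median log2 ratio of -2.30. Without the 5 genes it was 56 of 75 (74.7%) lower with a median of -2.19, beside 56.5% and -1.34 over all genes. The IP was at least 2-fold lower in 45 of these 75 (60.0%) and the input at least 2-fold higher in 35 (46.7%). Both together, the make-up of *Uqcc3*, *Lias*, *Fdx1l* and *Supv3l1*, were found in 16 (21.3%), beside 12.1% over all genes.

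Among complex III assembly factors, *Uqcc3* alone had an enrichment at least 2-fold lower at the most enriched region, and the count was 2 of 3 with reads summed over the regions of a gene, with the region of most input reads, or with regions of 20 or more input reads. Of 6 named genes 3 have a region, and the others were *Ttc19*, needed to keep complex III working, with a log2 ratio of 0.17 (-0.83 to 1.17), and *Lyrm7*, which acts in the insertion of the Rieske iron-sulfur protein, with -0.27 on 7 BKO and 2 flox/flox input reads. Of the assembly factors of the other respiratory complexes, 28 of 44 have a region, with a median of -2.34. At least 2-fold lower were 24 (85.7%) and none was at least 2-fold higher, beside 56.5% and 17.0% of all genes. Among those with 20 or more input reads in each genotype, the lowest was *Pet100*, for complex IV (-5.26, -6.19 to -4.33, in a region shared with *Pcp2*). Next among them came *Ndufaf7*, a methyltransferase for complex I (-4.66, -5.46 to -3.86), *Coa6*, which serves copper delivery to complex IV (-4.35, shared with *Tarbp1*), and *Sdhaf1*, for complex II (-4.28, shared with E130208F15Rik). *Pet100* held -3.03 from the IP and 2.23 from the input. In *Ndufaf7* the IP gave most, with -3.67 against 0.995 from the input. At the high end stood *Cox15*, for heme a synthesis (0.79, 0.08 to 1.499), and *Cox11*, for copper insertion (0.61, -0.51 to 1.74).

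Of the genes around *Lias*, 6 of 14 have a region. Lower by at least 2-fold were 4 (66.7%) and 1 was higher, beside 56.5% and 17.0% of all genes. Without *Lias*, which was picked for its low ratio, 3 of 5 (60.0%) were lower. *Mcat*, of mitochondrial fatty acid synthesis, which makes the precursor of lipoic acid, had a log2 ratio of -2.28 (-2.66 to -1.90), and *Lipt2*, the transferase that provides the substrate of LIAS, one of -2.22 (-3.06 to -1.39). *Dbt*, a lipoylated subunit of the branched-chain dehydrogenase, had -1.77 (-2.36 to -1.18). In these 3 genes the input ratio lay between 0.26 and 0.54, where *Lias* had 2.83. *Dld*, the dihydrolipoamide dehydrogenase, had -0.62 (-1.02 to -0.21) with both libraries higher in BKO iBAT. *Pdhx*, a component of the pyruvate dehydrogenase complex, was higher (1.71, 0.49 to 2.93) at a region in exon 1, as was *Fdx1l* at its own exon 1.

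Of the iron-sulfur list, 10 of 20 have a region. At least 2-fold lower were 8 (80.0%) and 1 was higher, beside 56.5% and 17.0% of all genes. Without *Fdx1l*, 7 of 9 (77.8%) were lower. *Bola1* had a log2 ratio of -3.49 (-4.02 to -2.95), the cysteine desulfurase *Nfs1* -3.28 (-3.67 to -2.90) and its partner *Lyrm4* -2.66 (-3.46 to -1.86). For *Nfs1* the input was 34.6 RPM in BKO and 23.9 RPM in flox/flox iBAT, so the change lay mostly in the IP, at 37.2 and 250 RPM. *Iba57*, of the late assembly steps, had -1.08, and the glutaredoxin *Glrx5*, read at a 5′-UTR region, 0.35 (-0.07 to 0.77). *Fdxr*, the reductase that feeds electrons to FDX1L, was named after its values were seen, since 18 flox/flox input reads put it under the minimum. Its IP held 125 reads in BKO and 1030 in flox/flox iBAT, and its input 102 and 18, a log2 ratio of -5.59 (-6.66 to -4.52), the lowest of this list. It moved like *Supv3l1*, with -3.75 from the IP and 1.84 from the input.

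Of the mitochondrial RNA list, 18 of 40 names have a region, with a median of -2.80. At least 2-fold lower were 15 (83.3%) and 3 were higher, beside 56.5% and 17.0% of all genes. Without *Supv3l1*, 14 of 17 (82.4%) were lower. Among genes with at least 20 input reads in each genotype, those next to *Supv3l1* in size were *Mrm3*, *Mrm2* and *Trit1*. The ribosomal RNA methyltransferases *Mrm3* and *Mrm2* had -4.55 (-5.27 to -3.82) and -4.02 (-4.92 to -3.12), and the transfer RNA modifying enzyme *Trit1* -3.95 (-4.68 to -3.22). Each had a lower IP and a higher input in BKO iBAT, with input log2 ratios of 2.38, 1.79 and 1.93. The least lower among genes with at least 20 input reads were the pseudouridine synthase *Pus1* (-1.51, in a region shared with an unnamed gene) and the mitochondrial poly(A) polymerase *Mtpap* (-1.45, -1.88 to -1.03). *Pnpt1*, the partner of SUPV3L1, has no region in the table.

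Of the list around *Tfam*, 15 of 28 names have a region. At least 2-fold lower were 9 (60.0%) and 1 was higher, beside 56.5% and 17.0% of all genes. Without *Tfam*, 8 of 14 (57.1%) were lower, near the share of all genes. The lowest were *Tfb1m* (-4.77, -5.94 to -3.60) and *Polg* (-3.78), on 16 and 4 flox/flox input reads, each in a region shared with another gene. Both fall under the minimum of 20 input reads and were named after their values were seen. *Mterf2*, a factor of mitochondrial transcription, had -3.24 (-4.17 to -2.31), the thymidine kinase *Tk2* -2.54 (-3.24 to -1.85) and the replicative helicase *Twnk* -2.49 (-3.49 to -1.498), the same log2 ratio as *Tfam*. *Twnk* reached it in another way, with -3.44 from the IP and an input of 2.54 RPM in BKO and 4.87 RPM in flox/flox iBAT. Both an IP at least 2-fold lower and an input at least 2-fold higher were found in 2 of the 15 (13.3%), beside 12.1% of all genes. With 20 or more input reads in each genotype it was none of 7, beside 9.79% of all genes. *Gabpa*, which encodes an activator of *Tfam* and other nuclear genes for mitochondrial proteins, had 0.75 (-0.39 to 1.90), and the protease *Lonp1*, which degrades TFAM, 0.54 (-0.55 to 1.63).

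**Figure D5:**
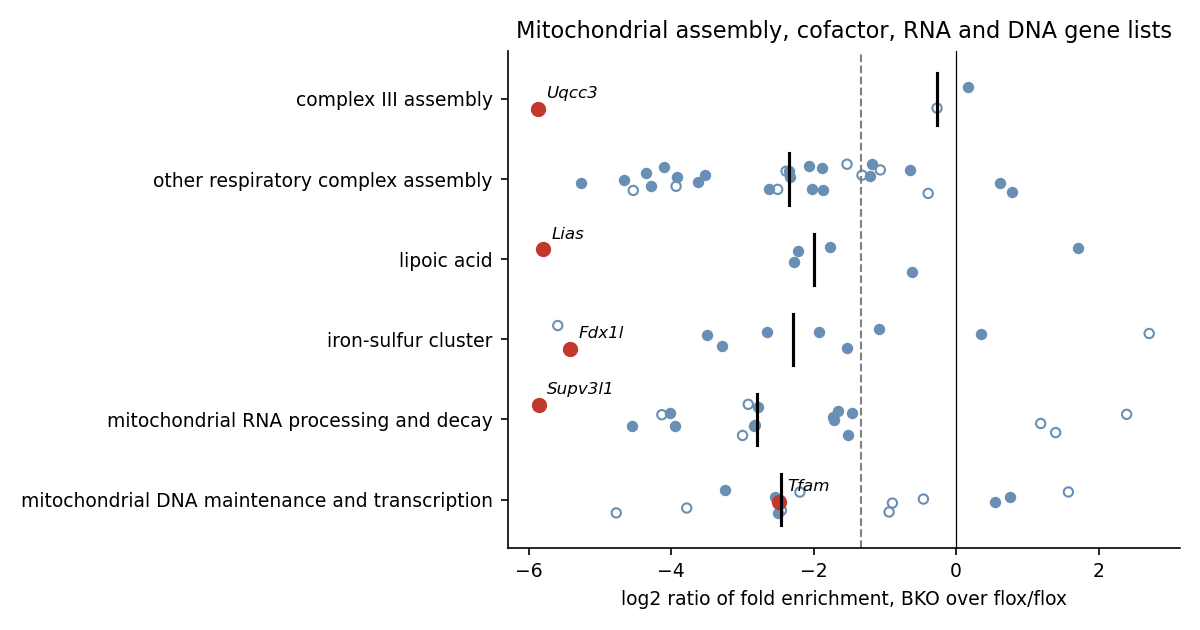
Log2 ratio of the fold enrichment of BKO over flox/flox for each gene in the 6 lists, at its most enriched region. Filled points have 20 or more input reads in each genotype and open points fewer, red marks the 5 genes, black bars give list medians, and the dashed line gives the median of all genes, -1.34.

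The genes most like each of the 5 were found by the distance between their IP and input log2 ratios, over 2 values from 4 libraries. Nearest to *Lias* were *Mrps25*, a mitochondrial ribosomal protein gene (distance 0.10), and *Ndn* (0.19). Nearest to *Uqcc3* were *Fdx1l* and *Raver1* (0.35 each), which share a region. For *Fdx1l* the nearest beyond its own region was *Mmaa*, which encodes a factor of mitochondrial vitamin B12 metabolism (0.08). Nearest to *Supv3l1* were *Tmco6* and the complex I subunit gene *Ndufa2* (0.38 each), in a shared region. *Tfam* lay closest to *Cdc16* (0.04) and *Nolc1* (0.06).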

How the data were processed

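m6ARIP-seq of iBAT was read from the table of peaks compared between genotypes. The authors removed adaptors (skewer), aligned to Ensembl GRCm38 by BWA (0.7.12-r1039) and called peaks by MACS2 (2.1.0). No source used here says how peaks were joined, how reads were counted, or whether coordinates start at 0 or 1. The deposited read counts are whole numbers per region. The deposited RPM is the count plus 1 scaled to library size, and the deposited fold enrichment is a linear ratio of IP over input RPM. The deposited log2 ratio of fold enrichments is the authors' own comparison, and it was computed anew from the fold enrichments. No listed region has a fold enrichment of 1 or below in either genotype, so losses to below that level are not in view.

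The log2 ratio was split into the IP log2 ratio minus the input log2 ratio, and the input share is the input part over the whole change. Intervals used a log-scale variance from count plus 1, taking 2 reads as 1 fragment because low counts were mostly even (77.2% to 92.5% by library). In simulated data for 9243 regions that also took 2 reads as 1 fragment, 96.0% of intervals held the true value. That result checks the formula under its own assumption and does not test the intervals on the real libraries. PCR copies are not independent molecules. A gene (deposited identifier) took its most enriched region in either genotype. Named genes were the 5 genes, the 4 lowest and 2 highest of each list with 20 or more input reads in each genotype, and the 2 nearest genes. *Lyrm7*, *Fdxr*, *Tfb1m* and *Polg*, under that minimum, were named in addition. The genes and lists were chosen with earlier results of these data known. Gene coordinates and promoter windows are from RefSeq, where *Fdx1l* matched as a synonym of *Fdx2*. Alternatives were other scalings, added counts, folds, filters and ways to combine regions. Python (3.11.15), pandas (2.3.3), NumPy (2.4.6) and Matplotlib (3.10.9) were used.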

Additional observations from a re-analysis of the deposited data

How the results depend on the processing

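The log2 ratios of the 5 genes stayed below 0 under all alternatives run. Centring IP and input on the median of all regions gave -4.79 for *Uqcc3*, -4.72 for *Lias*, -4.34 for *Fdx1l*, -4.78 for *Supv3l1* and -1.42 for *Tfam*, and input shares of 31.4% for *Supv3l1* and 4.04% for *Tfam*. Genes at least 2-fold lower were then 35.9%, those higher 30.2% and those with a lower IP and a higher input 4.21%. Centring on regions with at least 20 input reads gave -4.82, -4.75, -4.37, -4.81 and -1.45 in the same order of genes, an input share of 26.9% for *Tfam*, and 36.6%, 29.9% and 5.27% of genes. Of the 80 genes of the 6 lists, 43 were at least 2-fold lower after centring on all regions. After centring on regions with at least 20 input reads it was 44. Without centring, 45 were at least 4-fold lower. Genes of the 6 lists at least 2-fold higher were 12 under either centring, 1 with at least 20 input reads and 2 at a fold of 4. Reads summed over both regions of *Fdx1l* gave -4.35. A fold of 4 gave 37.4% lower, 7.47% higher and 1.77% with a lower IP and a higher input, and a fold of 1.5 gave 22.2% for the last. Genes at least 2-fold lower numbered 5 of 10 in the iron-sulfur list under either centring or a fold of 4, and 15 of 28 in the other assembly list after centring on all regions. In the complex III list they numbered 2 of 3 with reads summed over regions, with the region of most input reads, or with at least 20 input reads. With only regions called in flox/flox iBAT, 73.6% of 5332 genes were at least 2-fold lower and 3.38% at least 2-fold higher. Counting each region once was chosen after seeing the data and moved no share by over 1.5 times. The flox/flox input, 20 to 84 reads at the 3′ regions, limits every ratio. No paired analysis was possible because each group has 1 library.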
